A study of Rattus norvegicus with 12 samples.

Results

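The genes described here are 10 molecules of neural cell adhesion, namely the L1 family (L1cam, Nrcam, Chl1 and Nfasc), the neural cell adhesion molecule Ncam1, the contactin Cntn1 and the Cadm family (Cadm1 to Cadm4). They were taken by gene symbol from a table of read counts for 30454 Ensembl genes, in which all 10 had a row. Of the 10 genes, 9 had at least 1 count and 6 had enough counts for a test. RNA of rat cells that carry the label PC12 was sequenced in bulk, in 3 groups of 4 libraries. In the rTMS-MSCs group, cells exposed to oxygen-glucose deprivation with reoxygenation (OGD/R) were combined with mesenchymal stem cells and given 10 Hz repetitive transcranial magnetic stimulation. The MSCs group had OGD/R and stem cells, and the OGDR group had OGD/R alone. The series text gives 48 h after treatment as the sampling time. Every group had thus been deprived of oxygen and glucose, and no undeprived group was analysed here. The labels name neither the species of the stem cells nor the way the cultures were combined, so no level is assigned to one cell type. They do not say whether the 4 libraries of a group came from separate cultures, so the p-values here rest on the spread between libraries, which may be technical. Bulk counts cannot tell fewer cells of a type from less RNA per cell.

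Adhesion molecules of this kind sit in the plasma membrane with extracellular immunoglobulin domains, and bind partners of their own or of another family on the neighbouring cell. L1 family proteins carry fibronectin type III repeats next to the immunoglobulin domains and attach to the spectrin skeleton through ankyrins. L1cam and Chl1 promote neurite growth and cell migration, while Nrcam and the neuronal and glial forms of Nfasc assemble nodes of Ranvier. Ncam1 signals through the FGF receptor and the kinase Fyn, and long chains of polysialic acid on it loosen adhesion. Cntn1 is a lipid-anchored member of the wider family that pairs with Cntnap1 at the paranode. Cadm proteins, also called SynCAM or nectin-like molecules, join axons to glia and presynaptic to postsynaptic membranes. In peripheral nerve Cadm4 is a Schwann cell protein that binds axonal Cadm3.

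Each library held 18246250 to 20471838 counts assigned to genes. The label PC12 names an adrenal chromaffin tumour line, and the defining markers of such cells were low or absent. Of 14 chromaffin and PC12 markers, 8 stayed under 1 CPM (counts per 1000000, on library sizes scaled by TMM) in every library, and Ddc and Hand2 were among those with no count. The highest of the 14 was Slc18a2, with means of 10.5 CPM in rTMS-MSCs, 10.1 CPM in MSCs and 9.35 CPM in OGDR. All 14 together ran from 13.8 to 16.3 CPM in rTMS-MSCs, 13.4 to 15.9 CPM in MSCs and 11.4 to 15.2 CPM in OGDR. Of 12 Schwann cell and glial markers, 8 averaged 10 CPM or more. Their summed level ran from 1262 to 1361 CPM in rTMS-MSCs, 1249 to 1329 CPM in MSCs and 1036 to 1132 CPM in OGDR, so OGDR lay below the other groups. Of 12 neuronal markers, 8 stayed under 1 CPM, and the summed level ran from 79.8 to 85.7 CPM in rTMS-MSCs, 86.4 to 92.9 CPM in MSCs and 71.1 to 74.4 CPM in OGDR. These 2 sums moved in the same direction as most of the tested adhesion genes when stem cells were added. Their part in the results was not tested. The 12 stromal markers summed to 433.5 to 537.9 CPM in rTMS-MSCs, 530.5 to 589.1 CPM in MSCs and 548.4 to 577.2 CPM in OGDR, with Lum at 0 and rTMS-MSCs reaching lowest. The macrophage sum stayed at or under 4.63 CPM and the endothelial sum between 84.3 and 102 CPM in all libraries. The library rTMS-MSCs 3 stood apart within its group. Its counts differed from those of the other rTMS-MSCs libraries by a chi-square per degree of freedom of 12.7 to 23.5, against 3.91 to 9.89 for the 15 other pairs of libraries within a group. Calls of the stimulation step are given with all libraries and again without rTMS-MSCs 3 and MSCs 3. Pairs of MSCs 3 with MSCs 1, MSCs 2 and MSCs 4 gave 5.42, 9.89 and 8.47. The 9.89 was the highest value of those 15 pairs, followed by 8.48 for OGDR 1 with OGDR 4. The libraries rTMS-MSCs 3 and MSCs 3 lay at the 2 ends of the second principal component (32.4 and -30.8). On that component every MSCs library was below every rTMS-MSCs library. Leaving out both ends thus draws the group means together on that component by the way it was chosen, and leaves fewer libraries. How far a smaller fold change or a lost call in that fit comes from this choice was not tested.

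Of the 6 tested adhesion genes 4 (L1cam, Ncam1, Cadm3 and Cadm4) were higher in MSCs than in OGDR, and 0 fell. Cadm3 rose about 7.21-fold, L1cam 2.12-fold, Ncam1 1.78-fold and Cadm4 1.55-fold. Chl1 and Cadm1 gave differences of 0.00078 and 0.096 on the log2 scale that did not pass. A gene is said to rise or fall here only where the adjusted p of edgeR's quasi-likelihood test, fitted to all 12 libraries and adjusted by Benjamini-Hochberg over 13692 genes, was under 0.05. In MSCs against OGDR 20.2% of all tested genes were called, 11.6% up and 8.63% down. Both edgeR and the Wald test of DESeq2 called 4 adhesion genes up and 0 down, and 0 were lower at an unadjusted p under 0.05 in edgeR. All 4 that rose had groups that did not overlap, as did 24.7% of all tested genes. The median log2 fold change of the 6 was 0.73, beside -0.0021 for all tested genes.

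With added stimulation 4 of the 6 fell, of which L1cam and Ncam1 had risen with stem cells. L1cam, Chl1, Ncam1 and Cadm1 were lower in rTMS-MSCs than in MSCs, while Cadm3 and Cadm4 differed by 0.16 and 0.093 on the log2 scale and did not pass. The fold by which the 4 were lower was 1.58 for Chl1, 1.38 for L1cam, 1.17 for Ncam1 and 1.15 for Cadm1. In this comparison 18.1% of all tested genes were called, 10.9% down and 7.14% up. DESeq2 also called 4 adhesion genes down and 0 up, and 0 were higher at an unadjusted p under 0.05 in edgeR. The groups did not overlap for 3 of the 4 (19.0% of all tested genes), Cadm1 being the exception. Without rTMS-MSCs 3 alone, the library that stood apart, the call of Cadm1 was lost (-0.17, edgeR adjusted p = 0.095). The calls over all genes then came to 1480, of which 1005 were down and 475 up, against 2475 with all libraries. Without rTMS-MSCs 3 and MSCs 3, 1 of the 4 calls was left, that of Chl1, and the calls over all genes came to 677. Without MSCs 1 alone 2 adhesion genes were called, beside 1313 of 13836 over all genes. Without MSCs 3 alone 2 were called as well, beside 1006 of 13847 over all genes.

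Against OGDR, the combined treatment left 4 of the 6 genes higher and Chl1 lower. The genes that rose were L1cam, Ncam1, Cadm3 and Cadm4, by 1.53-fold, 1.53-fold, 8.04-fold and 1.65-fold. Chl1 was 1.57-fold lower, and Cadm1 differed by -0.11 on the log2 scale and did not pass. Of all tested genes 32.4% were called in this comparison, 16.2% up and 16.2% down. The 5 genes called were also those whose groups did not overlap, which held for 30.3% of all tested genes. The 3 comparisons share groups, so their fold changes are not independent of each other.

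**Figure D1:**
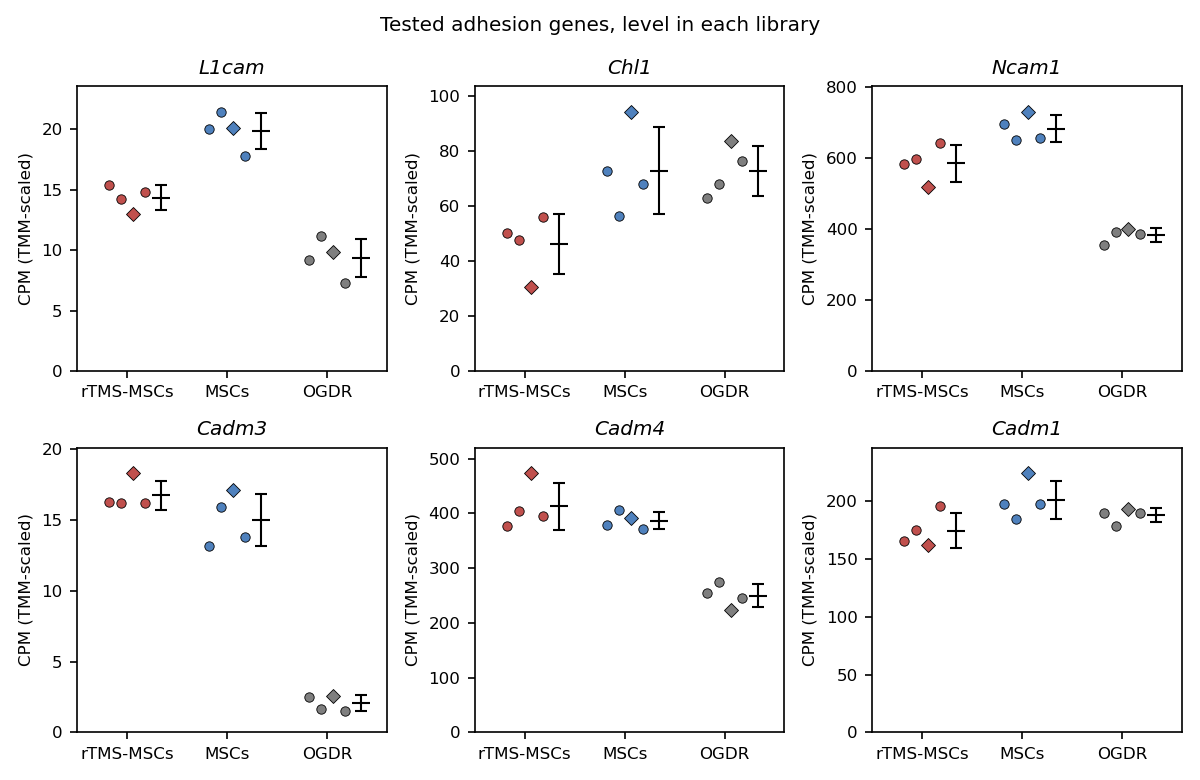
Level of each tested adhesion gene in CPM (TMM-scaled, linear axis from 0) in the 4 libraries of rTMS-MSCs, MSCs and OGDR, with the mean and SD as a bar at the right of each group and replicate 3 drawn as a diamond. The 4 OGDR libraries lie below the 8 others for L1cam, Ncam1, Cadm3 and Cadm4, and the 4 rTMS-MSCs libraries lie below the 8 others for Chl1.

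**Figure D2:**
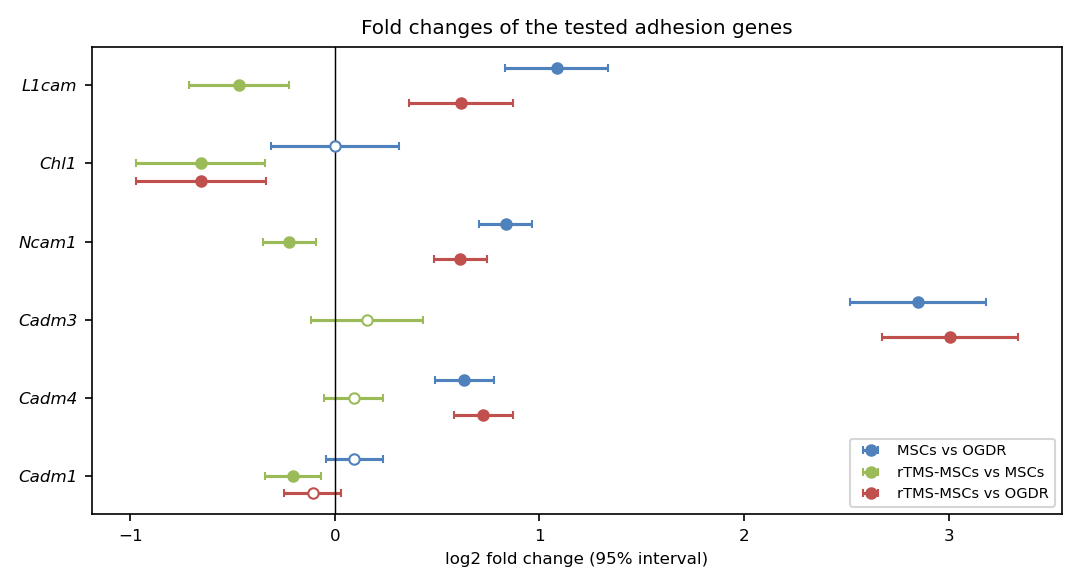
Log2 fold change of each tested adhesion gene in the 3 comparisons with its 95% interval, where filled circles had an adjusted p under 0.05 in edgeR and open circles did not. Cadm3 has the largest values of the 6 genes, 2.85 and 3.01 against OGDR, and Chl1 is the gene with filled circles below 0 in both comparisons of rTMS-MSCs.

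L1cam, the founding member of its family and a guide of axon growth and bundling, had 15.4, 14.2, 13.0 and 14.8 CPM in rTMS-MSCs libraries 1 to 4. It had 20.0, 21.5, 20.1 and 17.8 CPM in MSCs, and 9.16, 11.1, 9.84 and 7.27 CPM in OGDR. The 3 groups formed 3 separate ranges, with rTMS-MSCs between the others. The level averaged 14.4 ± 1.04 CPM in rTMS-MSCs, 19.9 ± 1.52 CPM in MSCs and 9.35 ± 1.61 CPM in OGDR (mean ± SD, n = 4 each). L1cam rose in MSCs against OGDR (log2 fold change 1.08 ± 0.12 SE, edgeR adjusted p = 9.01e-07). It fell in rTMS-MSCs against MSCs (-0.47 ± 0.117, edgeR adjusted p = 0.0108), a call that was lost without rTMS-MSCs 3 and MSCs 3 together (-0.42, edgeR adjusted p = 0.0638). Against OGDR it stayed higher in rTMS-MSCs (0.62 ± 0.122, edgeR adjusted p = 0.000633).

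Chl1, the close homologue of L1cam that acts in migration and neurite growth, had its own pattern. It had 50.3, 47.8, 30.7 and 56.2 CPM in rTMS-MSCs, 72.9, 56.4, 94.4 and 68.0 CPM in MSCs, and 63.0, 68.1, 83.7 and 76.5 CPM in OGDR. The lowest MSCs library and the highest rTMS-MSCs library almost met, and library 3 was the lowest of rTMS-MSCs but the highest of MSCs and of OGDR. Chl1 averaged 46.2 ± 10.95 CPM in rTMS-MSCs, 72.9 ± 15.9 CPM in MSCs and 72.8 ± 9.12 CPM in OGDR (mean ± SD, n = 4 each). No difference was detectable with stem cells alone, with a 95% interval for the log2 fold change of MSCs against OGDR from -0.31 to 0.31 (edgeR adjusted p = 0.998). Chl1 fell in rTMS-MSCs against MSCs (-0.66 ± 0.152, edgeR adjusted p = 0.00708) and against OGDR (-0.65 ± 0.152, edgeR adjusted p = 0.00253). Without rTMS-MSCs 3 and MSCs 3 the fall against MSCs was -0.35 (edgeR adjusted p = 0.0318) and that against OGDR was -0.50 (edgeR adjusted p = 9.81e-05).

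Libraries of 1 group differed in Chl1, Ncam1 and Cadm4 by several times what counting alone would give. The coefficient of variation of Chl1 was 23.7% in rTMS-MSCs, 21.8% in MSCs and 12.5% in OGDR, where counting error alone would give 3.33% in rTMS-MSCs, 2.68% in MSCs and 2.61% in OGDR. For Ncam1 it was 8.86% in rTMS-MSCs (counting 0.937%), 5.42% in MSCs (0.875%) and 4.95% in OGDR (1.14%). For Cadm1 it was 8.74% in rTMS-MSCs (counting 1.72%), 8.27% in MSCs (1.61%) and 3.39% in OGDR (1.62%). For Cadm4 it was 10.2% in rTMS-MSCs (counting 1.12%), 4.08% in MSCs (1.16%) and 8.54% in OGDR (1.41%). L1cam and Cadm3 have fewer counts, and counting error is larger for them. For L1cam it was 7.25% in rTMS-MSCs, 7.63% in MSCs and 17.2% in OGDR, where counting gives 5.98% in rTMS-MSCs, 5.12% in MSCs and 7.26% in OGDR. For Cadm3 it was 6.20% in rTMS-MSCs, 12.1% in MSCs and 26.9% in OGDR, where counting gives 5.54% in rTMS-MSCs, 5.90% in MSCs and 15.4% in OGDR. In OGDR the spread of both was thus above that of Chl1.

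Nrcam and Nfasc, which in neurons and glia gather ion channels at nodes, were at the edge of detection. Nrcam had 0, 2, 4 and 4 counts in rTMS-MSCs, 1, 5, 0 and 1 in MSCs, and 5, 6, 2 and 1 in OGDR. The sum was 10 counts in rTMS-MSCs (exact Poisson 95% interval 4.79 to 18.4), 7 in MSCs (2.81 to 14.4) and 14 in OGDR (7.65 to 23.5). No group stood out. Nfasc had 8, 8, 6 and 2 counts in rTMS-MSCs, 6, 7, 6 and 1 in MSCs, and 9, 2, 1 and 8 in OGDR. Its sum was 24 in rTMS-MSCs (15.4 to 35.7), 20 in MSCs (12.2 to 30.9) and 20 in OGDR (12.2 to 30.9). The groups overlapped for both genes, the intervals overlap as well, and a difference between groups was not detectable at this depth. The intervals cover counting error only, since reads without molecular identifiers are not independent molecules.

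**Figure D3:**
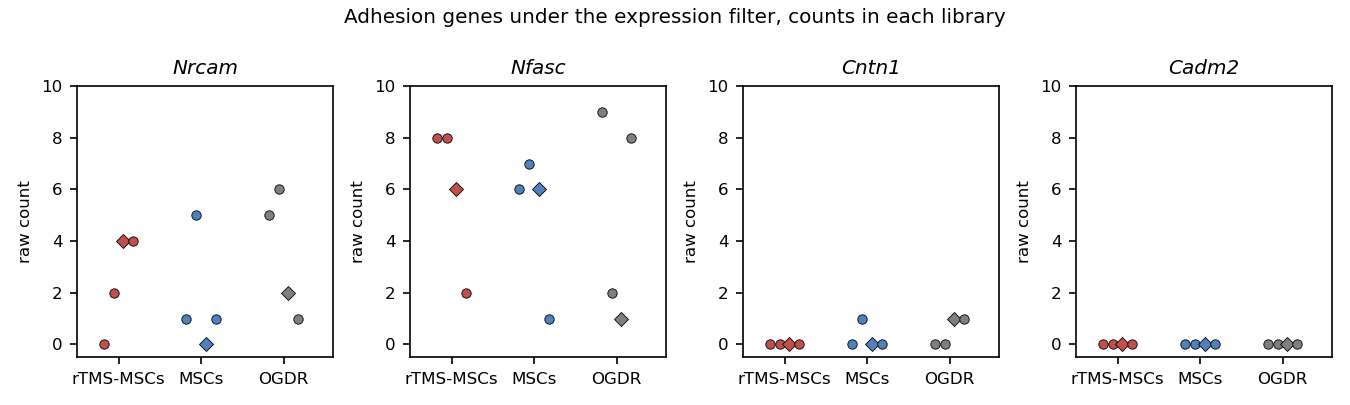
Raw counts of the 4 adhesion genes that were too low for a test, in each library of rTMS-MSCs, MSCs and OGDR, with replicate 3 drawn as a diamond. Nrcam and Nfasc stay at or under 9 counts, Cntn1 at or under 1, and Cadm2 is at 0 in all 12 libraries.

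Ncam1, the best-counted gene of the set with 128673 counts over all libraries, had 583, 596, 517 and 642 CPM in rTMS-MSCs. It had 694, 650.0, 729 and 654 CPM in MSCs and 355, 389, 399 and 385 CPM in OGDR. All 4 OGDR libraries were far below the rest, and rTMS-MSCs came just under MSCs with no overlap. The mean was 584 ± 51.8 CPM in rTMS-MSCs, 682 ± 37.0 CPM in MSCs and 382 ± 18.9 CPM in OGDR (mean ± SD, n = 4 each). Ncam1 rose in MSCs against OGDR (0.84 ± 0.062, edgeR adjusted p = 2.78e-09) and in rTMS-MSCs against OGDR (0.61 ± 0.0619, edgeR adjusted p = 2.22e-07). It fell in rTMS-MSCs against MSCs (-0.22 ± 0.0615, edgeR adjusted p = 0.0185). That call was lost without MSCs 1 (-0.21, edgeR adjusted p = 0.0608), without MSCs 3 (-0.19, edgeR adjusted p = 0.086) and without rTMS-MSCs 3 and MSCs 3 together (-0.13, edgeR adjusted p = 0.15).

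Cntn1, the paranodal contactin, had 3 counts in all. They fell in MSCs 2, OGDR 3 and OGDR 4, with 1 count each, and none in rTMS-MSCs. A count of 0 over the 4 rTMS-MSCs libraries allows a level of up to 0.0385 CPM, the limit of 3 counts over the group. No fold is given for it.

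In the Cadm family, Cadm3 and Cadm4 rose with stem cells, Cadm1 was nearly level and Cadm2 was listed at 0. Cadm3, the mainly neuronal and axonal member, had 16.3, 16.2, 18.3 and 16.2 CPM in rTMS-MSCs and 13.2, 15.9, 17.1 and 13.8 CPM in MSCs. In OGDR it had 2.48, 1.68, 2.604 and 1.51 CPM, from 29 to 54 counts a library. The lowest library with stem cells was thus several times above the highest OGDR library, whereas rTMS-MSCs and MSCs overlapped. The mean was 16.7 ± 1.04 CPM in rTMS-MSCs, 15.01 ± 1.82 CPM in MSCs and 2.07 ± 0.557 CPM in OGDR (mean ± SD, n = 4 each). Cadm3 rose in MSCs against OGDR (2.85 ± 0.159, edgeR adjusted p = 3.37e-11) and in rTMS-MSCs against OGDR (3.01 ± 0.159, edgeR adjusted p = 1.17e-11). By p-value it was number 38 and number 37 of the 13692 genes in these comparisons. Between rTMS-MSCs and MSCs the difference was 0.16, with an interval from -0.12 to 0.43 (edgeR adjusted p = 0.418). Without both libraries 3 it was 0.18 (edgeR adjusted p = 0.537).

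Cadm4, the glial binding partner of Cadm3, had 376, 405, 473 and 396 CPM in rTMS-MSCs, 378, 407, 392 and 371 CPM in MSCs, and 254, 275.0, 224 and 245 CPM in OGDR. All OGDR libraries were below all others, and the rTMS-MSCs and MSCs ranges overlapped. The mean was 413 ± 42.1 CPM in rTMS-MSCs, 387 ± 15.8 CPM in MSCs and 249.5 ± 21.3 CPM in OGDR (mean ± SD, n = 4 each). Cadm4 rose in MSCs against OGDR (0.63 ± 0.0694, edgeR adjusted p = 7.80e-07) and in rTMS-MSCs against OGDR (0.73 ± 0.0694, edgeR adjusted p = 1.04e-07). Between rTMS-MSCs and MSCs it differed by 0.093, with an interval from -0.051 to 0.24 (edgeR adjusted p = 0.36), and without both libraries 3 it was 0.027 (edgeR adjusted p = 0.856).

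Cadm1, the broadly expressed member that also acts at synapses, had 165, 175, 161 and 195 CPM in rTMS-MSCs, 197, 184, 224 and 198 CPM in MSCs, and 190, 179, 193 and 190 CPM in OGDR. The 3 groups overlapped. The mean was 174 ± 15.2 CPM in rTMS-MSCs, 201 ± 16.6 CPM in MSCs and 188 ± 6.37 CPM in OGDR (mean ± SD, n = 4 each). Cadm1 fell in rTMS-MSCs against MSCs (-0.20 ± 0.0664, edgeR adjusted p = 0.0389). This was the call of the set that most often failed. It was lost without MSCs 1, MSCs 3, MSCs 4, rTMS-MSCs 1, rTMS-MSCs 2 or rTMS-MSCs 3 (log2 fold changes -0.21, -0.15, -0.21, -0.18, -0.21 and -0.17, edgeR adjusted p from 0.0553 to 0.174). It was also lost in a fit of the 8 compared libraries (edgeR adjusted p = 0.071) and without both libraries 3 (-0.11, edgeR adjusted p = 0.317). Stem cells alone gave 0.096 (interval -0.042 to 0.23, edgeR adjusted p = 0.346). The combined treatment gave -0.11 against OGDR (interval -0.25 to 0.030, edgeR adjusted p = 0.23), and without rTMS-MSCs 4 it passed at -0.17 (edgeR adjusted p = 0.049).

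Since Cadm4 rose while Cadm1 did not, the ratio of their counts within a library differed between groups. It was 2.39 ± 0.384 in rTMS-MSCs, 1.94 ± 0.193 in MSCs and 1.33 ± 0.159 in OGDR (mean ± SD, n = 4 each). The ratio of Ncam1 to Chl1 counts was 13.1 ± 2.55 in rTMS-MSCs, 9.60 ± 1.55 in MSCs and 5.29 ± 0.462 in OGDR. These ratios need no scaling of the libraries, and they were not tested. For the first, the lowest MSCs value (1.75) lay above the highest OGDR value (1.54), and for the second the lowest MSCs value (7.72) lay above the highest OGDR value (5.72). The rTMS-MSCs and MSCs values overlapped in both ratios. The lowest rTMS-MSCs value was 2.03 and the highest MSCs value 2.21 for the first, and 11.44 and 11.53 for the second. Levels of different genes are not compared, because no transcript lengths of the build used for counting were used here.

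Cadm2, a synaptic and axonal member, had 0 counts in every library. A total of 0 over 12 libraries allows a level of up to 0.0127 CPM for the reads that the counting could assign to it. Mapk3, a kinase that nearly every cell expresses, was also listed at 0 in all 12 libraries. A 0 in this table therefore does not by itself show that a gene was silent.

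Promoters are printed for the tested genes that had one in the RefSeq table, Cadm3 and Cadm4 because both rose with stem cells and Chl1 because it did not. Of the 10 genes, 6 matched that table (build GRCr8, another build than the one used for counting). Each sequence runs 5′ to 3′ over 300 bases, 250 before the annotated start and 50 after it, and capitals mark GC boxes (GGGCGG) and AP-1 letters (TGANTCA), both searched on both strands. The positions are chr13:88349669-88349968 on the minus strand, chr1:89202839-89203138 on the plus strand and chr4:137847645-137847944 on the plus strand.
Cadm3: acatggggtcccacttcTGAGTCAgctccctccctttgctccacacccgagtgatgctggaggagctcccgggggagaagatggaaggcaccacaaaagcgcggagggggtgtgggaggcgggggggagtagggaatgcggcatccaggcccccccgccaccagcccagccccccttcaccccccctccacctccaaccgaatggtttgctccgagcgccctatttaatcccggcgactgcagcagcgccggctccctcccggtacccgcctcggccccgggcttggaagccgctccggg
Cadm4: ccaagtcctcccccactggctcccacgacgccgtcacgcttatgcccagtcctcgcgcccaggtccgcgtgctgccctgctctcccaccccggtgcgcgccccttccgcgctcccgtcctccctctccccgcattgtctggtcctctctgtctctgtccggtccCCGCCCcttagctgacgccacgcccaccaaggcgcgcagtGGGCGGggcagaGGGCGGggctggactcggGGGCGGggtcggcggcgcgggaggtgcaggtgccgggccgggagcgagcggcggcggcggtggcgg
Chl1: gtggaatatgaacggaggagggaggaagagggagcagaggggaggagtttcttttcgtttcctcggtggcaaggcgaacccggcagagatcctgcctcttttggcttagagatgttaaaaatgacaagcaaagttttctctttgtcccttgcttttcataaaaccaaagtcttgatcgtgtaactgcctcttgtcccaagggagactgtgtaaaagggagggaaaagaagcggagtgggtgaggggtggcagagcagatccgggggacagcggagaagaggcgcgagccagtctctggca

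The Cadm4 window held 4 GC boxes that did not overlap one another, and the Cadm3 and Chl1 windows held 0. A GC box was present in 33.1% of all 33469 promoters of the same length. The AP-1 letters stood once in the Cadm3 window and in 7.33% of all promoters, and in neither of the other windows shown. The E box CANNTG, found in 72.1% of promoters, was present once in Cadm4 and absent from Cadm3 and Chl1. None of the windows held the TATA box TATAAA (14.2% of promoters), the CRE TGACGTCA (1.83%) or the glucocorticoid response element (0.0329%). The share of G and C was 68.7% in Cadm3, 76.0% in Cadm4 and 52.3% in Chl1, against a median of 51.7% over all promoters. These are matches of letters and say nothing of whether a factor binds there.

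**Figure D4:**
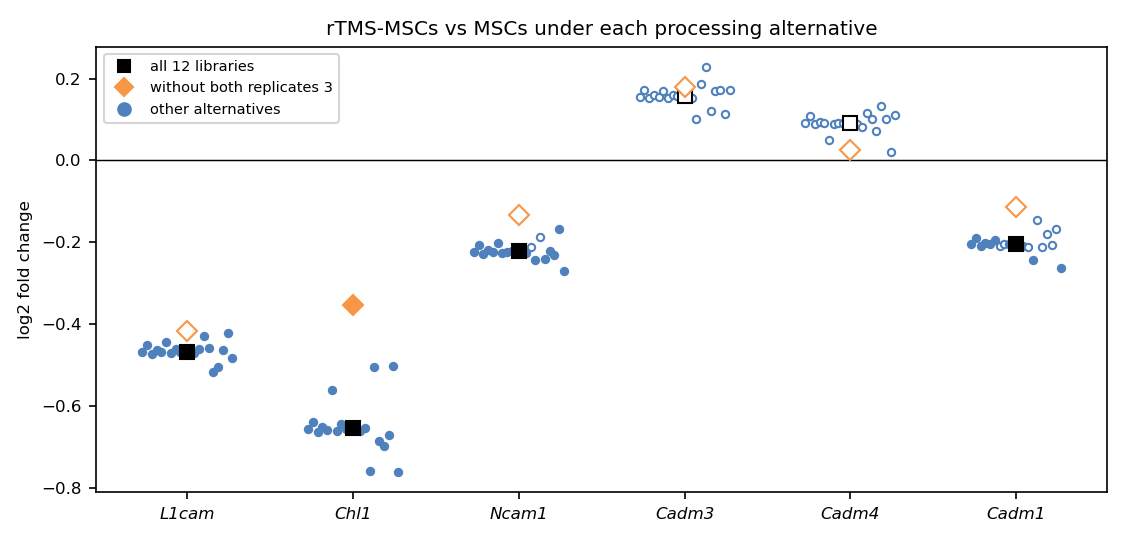
Log2 fold change of rTMS-MSCs against MSCs for each tested adhesion gene, with all 12 libraries (square), without replicate 3 of both groups (diamond) and under the 20 other alternatives (circles), filled where the adjusted p was under 0.05. Without both libraries 3 the value of Chl1 goes to -0.35 and stays filled, and those of L1cam, Ncam1 and Cadm1 are open.

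Genes that work with these molecules were read off from 7 lists of 216 entries, of which 129 genes were tested. With stem cells, 39 of the 129 rose and 11 fell in MSCs against OGDR, or 30.2% and 8.53%, beside 11.6% and 8.63% of all tested genes. With stimulation, 29 of the 129 fell and 0 rose in rTMS-MSCs against MSCs (22.5% and 0%, beside 10.9% and 7.14%). DESeq2 called 32 down and 2 up there, and at an unadjusted p under 0.05 edgeR had 42 down and 6 up. In edgeR 1 companion gene rose with upper quartile scaling, 1 with no filter and 1 with a filter of 1 CPM in 4 libraries. A companion gene also rose in limma voom, and in edgeR without MSCs 2, MSCs 4, rTMS-MSCs 1, rTMS-MSCs 2 or rTMS-MSCs 4. Without rTMS-MSCs 3 and MSCs 3 the edgeR calls were 16 down and 0 up, and without MSCs 3 alone 18 down and 0 up. Over all tested genes these fits called 523 down and 154 up of 13808, and 724 down and 282 up of 13847. Without MSCs 1 alone 919 were down and 394 up of 13836, and without rTMS-MSCs 3 alone 1005 down and 475 up of 13848. With all libraries there were 1498 down and 977 up of 13692. In rTMS-MSCs against OGDR 27 rose and 30 fell (20.9% and 23.3%, beside 16.2% and 16.2% of all tested genes). Over the 7 lists, the share that fell in rTMS-MSCs against MSCs ran from 5.56% for other immunoglobulin molecules to 35.7% for cadherins and catenins, beside 10.9% of all tested genes. These lists and the 10 genes were chosen with earlier results of these data known, so the counts are a description.

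Among relatives of the L1 family and the contactins, 3 of 7 tested genes rose (42.9%, beside 11.6% of all tested genes) and 0 fell in MSCs against OGDR, with 0 lower at an unadjusted p under 0.05 and 0 in DESeq2. Cntn6, a contactin of developing neurons, rose by 1.11 ± 0.232 (edgeR adjusted p = 0.00145), and Cntnap1, the paranodal partner of Cntn1, by 0.58 ± 0.143 (edgeR adjusted p = 0.00537). The third, Ptprz1, rose by 0.27 ± 0.0925 (edgeR adjusted p = 0.048) with overlapping groups. Its call was lost, leaving 2 of the 7, under median ratio or upper quartile scaling and with the replicate number as a block. The same held without OGDR 1, OGDR 2, OGDR 3, MSCs 1, MSCs 3, MSCs 4 or rTMS-MSCs 2. The count was 4 in DESeq2, in limma voom and without OGDR 4 or rTMS-MSCs 3. In rTMS-MSCs against MSCs 2 of the 7 fell (28.6%, beside 10.9% of all tested genes), and 1 without both libraries 3. Sdk2, a sidekick adhesion molecule of retinal synapses, had 44.2 CPM in rTMS-MSCs and 64.4 CPM in MSCs and fell by 0.54 (edgeR adjusted p = 0.00268), with -0.39 without both libraries 3 (edgeR adjusted p = 0.0132). The receptor phosphatase Ptprz1, a ligand of Cntn1, fell by 0.37 (edgeR adjusted p = 0.0102), a call lost without both libraries 3 (-0.23, edgeR adjusted p = 0.0576).

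Other immunoglobulin adhesion molecules gave 9 up and 4 down of 18 in MSCs against OGDR (50% and 22.2%, beside 11.6% and 8.63%). Hepacam, an astrocyte and glial adhesion molecule, rose by 0.69 ± 0.0679 and Mcam, an adhesion molecule of vessels and Schwann cells, by 0.53 ± 0.0503. Lrrn3, a leucine-rich repeat neuronal protein, fell by 1.28 ± 0.104, with 15.9 CPM in MSCs and 38.9 CPM in OGDR. In rTMS-MSCs against MSCs 1 of the 18 fell and 0 rose, or 5.56% and 0%, beside 10.9% and 7.14% of all tested genes. Higher were 2 at an unadjusted p under 0.05 and 1 in DESeq2. The gene that fell was Kirrel1, a nephrin relative, at -0.71 ± 0.114 (edgeR adjusted p = 0.0012), and without both libraries 3 it was at -0.49 (edgeR adjusted p = 0.000929).

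Of 26 tested cytoskeletal and scaffold anchors, 7 fell and 0 rose in rTMS-MSCs against MSCs (26.9% and 0%, beside 10.9% and 7.14%). Higher were 1 at an unadjusted p under 0.05 and 0 in DESeq2. In MSCs against OGDR 4 rose and 2 fell (15.4% and 7.69%, near the 11.6% and 8.63% of all tested genes). The 7 became 3 without MSCs 3, 3 without both libraries 3, and 4 without MSCs 1, MSCs 2, rTMS-MSCs 1 or rTMS-MSCs 3. In MSCs against OGDR the 4 became 2 without OGDR 4, MSCs 3 or MSCs 4, and the 2 became 1 in 9 of the 12 fits that left out 1 library. Ank2, an ankyrin that ties L1 proteins to spectrin, had 33.6 CPM in rTMS-MSCs and 52.8 CPM in MSCs and fell by 0.65 ± 0.13 (edgeR adjusted p = 0.00327). Sptbn1, the widely expressed beta spectrin, had 419 CPM in rTMS-MSCs and 646 CPM in MSCs and fell by 0.62 ± 0.105 (edgeR adjusted p = 0.00136). Epb41, a protein 4.1 of the spectrin-actin junction, fell by 0.41 ± 0.0883. Without both libraries 3 these were -0.42 for Ank2, -0.42 for Sptbn1 and -0.34 for Epb41 (edgeR adjusted p = 0.0111, 0.000624 and 0.0303). In MSCs against OGDR its relative Epb41l1 rose by 0.48 ± 0.0574 (edgeR adjusted p = 2.29e-06), and Pals2, a scaffold that binds Cadm proteins, fell by 0.49 ± 0.0905 (edgeR adjusted p = 0.000413).

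Of 24 tested signalling partners of NCAM and L1, 10 rose and 3 fell in MSCs against OGDR (41.7% and 12.5%, beside 11.6% and 8.63%). Fgfr3, one of the FGF receptors, rose by 0.88 ± 0.0809 (edgeR adjusted p = 7.00e-08), the prion protein gene Prnp, whose product binds NCAM, by 0.36 ± 0.0521, and Gfra1, the GDNF co-receptor that can work with NCAM, by 0.45 ± 0.0667. In rTMS-MSCs against MSCs 6 fell and 0 rose (25% and 0%, beside 10.9% and 7.14%). Higher were 0 at an unadjusted p under 0.05 and 0 in DESeq2. The 6 became 3 without MSCs 3 and 3 without both libraries 3. Nrp1, the neuropilin that forms a semaphorin receptor with L1, fell by 0.60 ± 0.13 (edgeR adjusted p = 0.00523) and its relative Nrp2 by 0.31 ± 0.0556 (edgeR adjusted p = 0.00214). Without both libraries 3 these were -0.36 for Nrp1 and -0.22 for Nrp2 (edgeR adjusted p = 0.0107 and 0.00823). Nrp2 was also lower in MSCs than in OGDR (-0.37 ± 0.0555, edgeR adjusted p = 5.01e-05).

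Of 18 tested sheddases, secretases and polysialic acid enzymes, 5 rose (27.8%, beside 11.6%) and 0 fell in MSCs against OGDR (0 lower at an unadjusted p under 0.05, 0 in DESeq2). Plat, the tissue plasminogen activator, had 36.8 CPM in MSCs and 16.0 CPM in OGDR and rose by 1.20 ± 0.0844 (edgeR adjusted p = 1.15e-09). The metalloproteases Adam12 and Adam15 rose by 0.44 ± 0.0713 and 0.31 ± 0.0602. In rTMS-MSCs against MSCs 4 fell and 0 rose (22.2% and 0%, beside 10.9% and 7.14%). Higher were 2 at an unadjusted p under 0.05 and 1 in DESeq2. The 4 became 2 without MSCs 1, MSCs 3, rTMS-MSCs 2 or rTMS-MSCs 3, and 1 without both libraries 3. Adam10, a main sheddase of L1, fell by 0.42 ± 0.0997 (edgeR adjusted p = 0.00804), which did not pass without both libraries 3 (-0.26, edgeR adjusted p = 0.0576). St8sia2 and St8sia4, the enzymes that build polysialic acid on NCAM, were listed at 0 in all libraries.

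Cadherins and catenins gave 5 up and 1 down of 14 in MSCs against OGDR (35.7% and 7.14%, beside 11.6% and 8.63%). In rTMS-MSCs against MSCs 5 fell and 0 rose (35.7% and 0%, beside 10.9% and 7.14%). Higher were 0 at an unadjusted p under 0.05 and 0 in DESeq2. The 5 that fell became 3 without MSCs 3 and 3 without both libraries 3, and the 1 that fell in MSCs against OGDR became 2 without MSCs 3, rTMS-MSCs 3 or rTMS-MSCs 4. Cdh13, a lipid-anchored cadherin, rose by 0.58 ± 0.0537 in MSCs against OGDR (edgeR adjusted p = 7.63e-08), and the protocadherin Pcdh18 fell by 0.48 ± 0.0731. Cdh2, the neural cadherin, had 355 CPM in rTMS-MSCs and 414 CPM in MSCs and fell by 0.22 ± 0.0503 (edgeR adjusted p = 0.00667), with -0.17 without both libraries 3 (edgeR adjusted p = 0.0447). Neurexins, neuroligins and synaptic organisers gave 3 up and 1 down of 22 in MSCs against OGDR (13.6% and 4.55%, near the 11.6% and 8.63% of all tested genes). In rTMS-MSCs against MSCs 4 fell and 0 rose (18.2% and 0%, beside 10.9% and 7.14%). Higher were 0 at an unadjusted p under 0.05 and 0 in DESeq2. The 4 stayed 4 without both libraries 3, while in MSCs against OGDR that setting gave 1 up and 2 down, and leaving out MSCs 3 alone 2 up and 2 down. The calsyntenin Clstn1 rose by 0.68 ± 0.0574 in MSCs against OGDR (edgeR adjusted p = 2.01e-08) and the netrin-G protein Ntng2 fell by 0.63 ± 0.0756. The latrophilin Adgrl1 fell by 0.46 ± 0.0794 and the teneurin Tenm3 by 0.37 ± 0.0776 in rTMS-MSCs against MSCs (edgeR adjusted p = 0.00163 and 0.00449). Without both libraries 3 these were -0.39 for Adgrl1 and -0.26 for Tenm3 (edgeR adjusted p = 0.00398 and 0.0334).

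**Figure D5:**
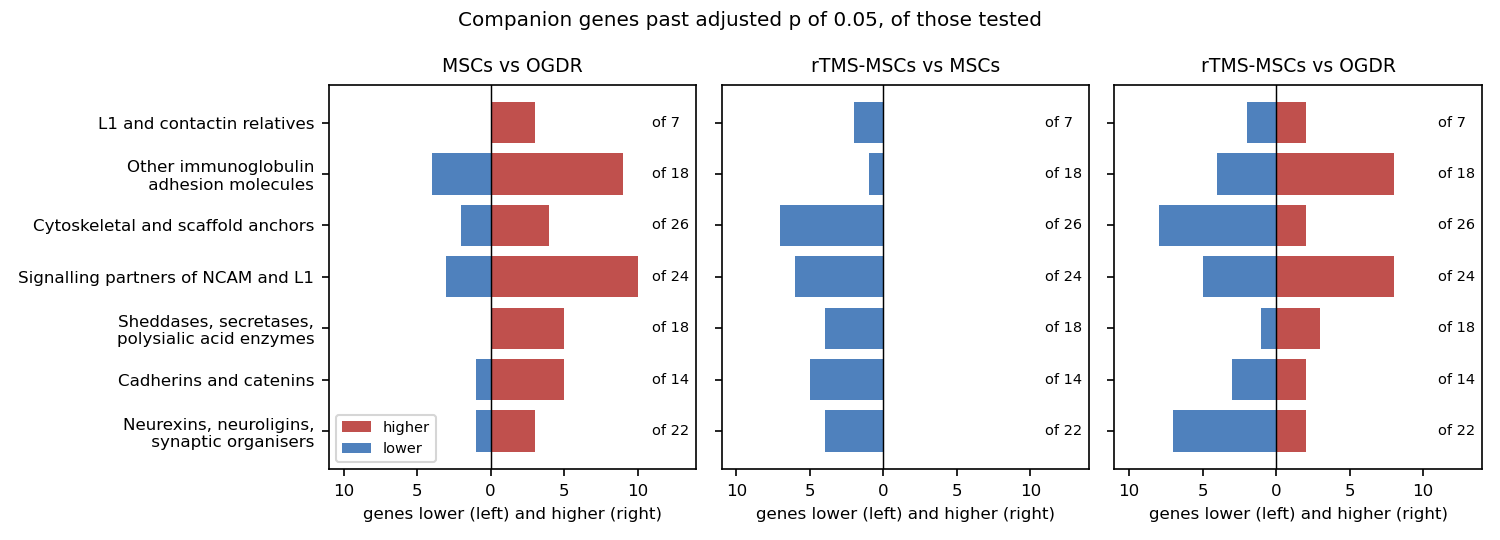
Number of companion genes in each of the 7 lists with an adjusted p under 0.05 in edgeR, higher to the right and lower to the left of 0, in the 3 comparisons, with the number tested at the right. In rTMS-MSCs against MSCs the 29 genes called lie to the left, while in MSCs against OGDR 39 lie to the right and 11 to the left.

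For each tested adhesion gene, the 2 genes with the most alike profile were looked up among 9245 genes with a symbol and a mean of at least 10 CPM. Likeness was the root mean square difference in log2 CPM over the 12 libraries, each gene centred on its own mean. For Cadm3, whose own SD was 1.45 log2 units, the nearest were the clock gene Per1 (0.244) and the glycerol-3-phosphate dehydrogenase Gpd1 (0.253). Per1 averaged 141 CPM in rTMS-MSCs, 120.1 CPM in MSCs and 19.5 CPM in OGDR. For L1cam they were the transcription cofactor Vgll3 (0.137) and the basement membrane proteoglycan perlecan, Hspg2 (0.154). For Ncam1 they were the actin-binding supervillin gene Svil (0.0584) and Cpt1a (0.0628), the enzyme that admits fatty acids to mitochondria. For Chl1 they were the ceramide synthase Cers6 (0.0848) and Arhgap5 (0.0897). Cers6 averaged 30.8 CPM in rTMS-MSCs, 46.5 CPM in MSCs and 47.7 CPM in OGDR. The nearest to Cadm4 were Tp53i13 (0.0645) and Grina (0.0647), and to Cadm1, which varied little (SD 0.127), Baz1a (0.0469) and Gnptab (0.0501).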

How the data were processed

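Per the submitters' processing notes, the authors used HISAT2 2.1.0, HTSeq 0.11.2, DESeq2 1.40.1 and rat build mRatBN7.2; whether counting used strand is not given here. The deposited table holds a raw count per Ensembl gene and library, and its 5 HTSeq summary lines (no feature: 51.7% to 52.7% of reads) entered neither library sizes nor tests. The series text speaks of 20 samples and a microarray, while the labels describe the 12 sequencing libraries analysed here. The fold changes, CPM and log2 values were computed here from the deposited counts with R 4.3.3 and edgeR 4.0.16: filterByExpr (minimum count 10, minimum total 15), TMM scaling, glmQLFit with 1 mean for each group over all 12 libraries, and glmQLFTest, whose 2-sided p was adjusted over 13692 genes (Benjamini-Hochberg). Log2 CPM used a prior count of 2. The test was tried on simulated counts with known changes, for MSCs against OGDR only. The simulated libraries included none that stood apart, so the trial does not bear on the stimulation step. Alternatives used DESeq2 1.42.0 and limma 3.58.1. Library totals were 18246250 to 20471838.

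The members and lists were chosen with earlier results of these data known. Named were all 10 members, up to 4 genes of smallest p per list and comparison, and the 2 genes of nearest profile per tested member; Mapk3 and the polysialic acid enzymes were named after their values were seen. In the RefSeq annotation (GRCr8) other genes overlap Cadm1 (3 long non-coding genes), Cntn1 (1), and Chl1 and Cadm2 (1 pseudogene each), and their reads may not be fully separable. Some genes that the naming rule covers are not reported here.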

Additional observations from a re-analysis of the deposited data

Results flagged for a closer look

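Cadm3 in rTMS-MSCs 3 stood at 18.3 CPM, far from the other 3 libraries of its group, which lay between 16.2 and 16.3 CPM, and the same library stood apart over all genes. Cntn1 in MSCs 2 stood at 0.0513 CPM, which is 1 count against 0 in the other MSCs libraries. By chance about 1 in 20 groups would be marked in this way, and 26 were examined. That rate holds for continuous values with a normal spread. A group with 1 count in 1 library and 0 in the others is always marked, so the mark of Cntn1 tells nothing.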

How the results depend on the processing

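Each adhesion gene's fold change was recomputed under 21 alternatives per comparison. In MSCs against OGDR the 4 calls held in all 21. The log2 fold change of Cadm3 stayed between 2.73 and 2.98, of L1cam between 0.99 and 1.18, of Ncam1 between 0.80 and 0.86 and of Cadm4 between 0.58 and 0.68. The value of Chl1, near 0 and never called there, changed sign under upper quartile scaling (-0.022), limma voom with quality weights (-0.0073), the replicate block (-0.0031) and without both libraries 3 (-0.15), and ran from -0.15 to 0.11 when 1 library was left out. In rTMS-MSCs against OGDR 5 genes were called, or 6 without rTMS-MSCs 4. In rTMS-MSCs against MSCs, leaving out 1 library gave 2 to 4 calls among the 6 genes, 1006 to 3196 over all genes and 18 to 37 among companion genes. Without both libraries 3, a choice that by itself draws the group means together on the second principal component, these were 1, 677 and 16. The cause was not tested. Alternatives for companion genes were added after the data were seen. Labels share replicate numbers, but same-numbered libraries did not deviate together (correlations -0.205 to 0.128, and 4 of 12 libraries correlated best with their own number). With the replicate number as a block 3 adhesion genes were called in rTMS-MSCs against MSCs (1995 over all genes), Cadm1 being lost at edgeR adjusted p = 0.0534, and 4 and 5 in the other comparisons (2577 and 4185 over all genes). Under every scaling the median log2 fold change of all genes stayed between -0.024 and 0.030. At this depth Nrcam, Nfasc, Cntn1 and Cadm2 could not be tested.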
